A study of Homo sapiens with 12 samples.

Results

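The genes described here encode the subunits of the mitochondrial respiratory chain and of ATP synthase in KBM-7 cells. They are the protein-coding genes whose symbol starts with NDUFA, NDUFB, NDUFC, NDUFS, NDUFV, UQCR, COX4, COX5, COX6, COX7, COX8, ATP5F or ATP5M, together with SDHA, SDHB, SDHC and SDHD. The rule found 91 of the 19974 protein-coding genes on chromosomes 1 to 22 and X. By symbol, 37 belonged to complex I, 4 to complex II, 9 to complex III, 17 to complex IV and 14 to complex V, the ATP synthase. The rule also took 8 genes that are not subunits, NDUFAF1 to NDUFAF8, which help to assemble complex I, and 2 readthrough genes, ATP5MF-PTCD1 and NDUFC2-KCTD14, whose windows overlap those of ATP5MF and NDUFC2. UQCRHL and ATP5MGL are copies of UQCRH and ATP5MG. NDUFA4 and NDUFA4L2 carry the symbols COXFA4 and COXFA4L2 in the gene table and so fell outside the rule.

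Complex I takes electrons from NADH and complex II takes them from succinate; both pass them through ubiquinone to complex III, then through cytochrome c to complex IV, which reduces oxygen. Complexes I, III and IV pump protons out of the mitochondrial matrix, and ATP synthase uses the gradient to make ATP. Nearly every cell needs the common subunits. Some complex IV subunits also exist in versions known from particular tissues: COX6A2 and COX7A1 in heart and skeletal muscle, COX4I2 mainly in lung, and COX6B2, COX7B2 and COX8C in testis.

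KBM-7 is a human leukaemia line whose cells carry a nearly haploid chromosome set. All samples came from cultures of this line, for which no treatment is named, and 9 histone marks were mapped with 1 immunoprecipitated library each, beside 3 inputs that entered nothing here. The deposited data are called intervals without read counts. Library depth is therefore unknown, and with 1 library per mark no difference could be set against replicate error. The H3K36me3 and H4K16ac labels held the same 45695 intervals and are given as 1 set, H3K36me3/H4K16ac, which leaves 8 sets, and either mark cannot be told apart from the other. Wilson 95% intervals cover counting error only. Of 10 markers of myeloid and progenitor cells, 9 had H3K4me3 within 1 kb of a start and KIT did not, against 52.8% of all genes. None of 12 markers of other cell types (0 of 12) had H3K4me3 there. H3K27me3 was within 1 kb of a start at 7 of those 12, against 29.2% of all genes.

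The promoter windows below show the contrast on which the results turn. The 4 pairs of complex IV genes with a listed start for both hold a common gene, which carried H3K4me3 at its start, followed by its tissue-specific counterpart, which did not. ATP5F1C and SDHB are shown for the letters that recur at marked starts, and NDUFA5 for 2 starts of 1 gene that differed. Sequences are from RefSeq on GRCh38.p14, run 5′ to 3′ on the gene's own strand, and hold 250 bases before the listed start and 50 from it on. Capitals mark exact matches, on either strand, to GCGCATGCG (a motif of the factor NRF1), CCGGAAG (of ETS factors such as GABPA) or AAGATGGCG (of YY1).
COX6A1, chr12:120437863-120438162, plus strand: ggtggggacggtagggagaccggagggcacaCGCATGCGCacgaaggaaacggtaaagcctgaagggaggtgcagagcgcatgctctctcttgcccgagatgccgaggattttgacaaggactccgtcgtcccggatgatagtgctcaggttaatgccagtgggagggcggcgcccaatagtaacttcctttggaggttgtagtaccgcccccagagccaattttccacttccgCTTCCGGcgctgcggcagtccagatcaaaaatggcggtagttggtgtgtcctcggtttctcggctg
COX6A2, chr16:31428311-31428610, minus strand: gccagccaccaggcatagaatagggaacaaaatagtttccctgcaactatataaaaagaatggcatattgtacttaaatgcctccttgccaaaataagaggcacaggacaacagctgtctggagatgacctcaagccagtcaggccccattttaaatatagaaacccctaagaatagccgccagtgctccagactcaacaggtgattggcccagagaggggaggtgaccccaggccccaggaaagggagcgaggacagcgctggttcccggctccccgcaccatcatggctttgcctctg
COX6B1, chr19:35648073-35648372, plus strand: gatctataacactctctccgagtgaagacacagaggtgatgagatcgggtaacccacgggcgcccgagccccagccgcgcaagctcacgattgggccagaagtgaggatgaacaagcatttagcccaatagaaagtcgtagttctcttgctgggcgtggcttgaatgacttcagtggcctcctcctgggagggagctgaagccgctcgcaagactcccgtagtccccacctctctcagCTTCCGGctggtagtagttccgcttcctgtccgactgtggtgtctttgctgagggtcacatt
COX6B2, chr19:55354670-55354969, minus strand: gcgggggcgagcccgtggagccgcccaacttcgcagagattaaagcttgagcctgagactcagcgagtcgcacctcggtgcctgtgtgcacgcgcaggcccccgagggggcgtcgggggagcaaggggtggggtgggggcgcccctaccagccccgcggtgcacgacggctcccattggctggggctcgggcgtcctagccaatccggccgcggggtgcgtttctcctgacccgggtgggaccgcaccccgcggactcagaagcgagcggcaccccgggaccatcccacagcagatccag
COX7B, chrX:77899218-77899517, plus strand: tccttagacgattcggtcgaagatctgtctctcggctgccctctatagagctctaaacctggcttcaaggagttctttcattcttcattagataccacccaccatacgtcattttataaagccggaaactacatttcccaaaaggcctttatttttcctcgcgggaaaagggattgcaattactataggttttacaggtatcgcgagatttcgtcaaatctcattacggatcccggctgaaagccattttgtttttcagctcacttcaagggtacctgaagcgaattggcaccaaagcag
COX7B2, chr4:46909196-46909495, minus strand: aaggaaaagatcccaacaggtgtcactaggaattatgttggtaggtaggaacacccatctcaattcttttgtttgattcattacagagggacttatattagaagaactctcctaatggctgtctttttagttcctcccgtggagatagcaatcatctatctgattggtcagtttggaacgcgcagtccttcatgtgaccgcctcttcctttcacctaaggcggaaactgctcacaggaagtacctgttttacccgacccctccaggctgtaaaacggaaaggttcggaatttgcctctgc
COX8A, chr11:63974370-63974669, plus strand: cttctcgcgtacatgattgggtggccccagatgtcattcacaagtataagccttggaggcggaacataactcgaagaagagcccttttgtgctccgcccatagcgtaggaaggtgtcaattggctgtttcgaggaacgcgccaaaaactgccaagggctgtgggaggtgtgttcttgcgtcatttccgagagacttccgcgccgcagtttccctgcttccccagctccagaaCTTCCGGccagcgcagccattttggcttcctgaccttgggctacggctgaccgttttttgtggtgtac
COX8C, chr14:93346932-93347231, plus strand: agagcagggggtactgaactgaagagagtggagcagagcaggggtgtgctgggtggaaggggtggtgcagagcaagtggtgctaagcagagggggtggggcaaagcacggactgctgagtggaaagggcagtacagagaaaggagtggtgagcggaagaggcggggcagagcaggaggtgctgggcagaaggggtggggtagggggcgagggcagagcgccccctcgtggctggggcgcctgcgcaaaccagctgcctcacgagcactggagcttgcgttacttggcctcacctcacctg
ATP5F1C, chr10:7787927-7788226, plus strand: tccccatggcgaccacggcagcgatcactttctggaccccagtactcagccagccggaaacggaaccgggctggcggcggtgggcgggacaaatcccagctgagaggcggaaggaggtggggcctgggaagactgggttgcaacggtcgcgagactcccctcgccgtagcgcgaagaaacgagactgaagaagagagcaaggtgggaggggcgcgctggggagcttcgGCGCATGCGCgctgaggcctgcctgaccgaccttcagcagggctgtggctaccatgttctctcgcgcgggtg
SDHB, chr1:17053983-17054282, minus strand: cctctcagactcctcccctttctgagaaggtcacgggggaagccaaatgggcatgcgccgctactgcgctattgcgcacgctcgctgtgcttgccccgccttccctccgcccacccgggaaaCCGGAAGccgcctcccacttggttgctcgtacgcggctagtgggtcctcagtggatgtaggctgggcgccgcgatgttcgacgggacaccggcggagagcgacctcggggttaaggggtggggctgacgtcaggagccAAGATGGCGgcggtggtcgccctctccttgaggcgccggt
NDUFA5 inner start, chr7:123557769-123558068, minus strand: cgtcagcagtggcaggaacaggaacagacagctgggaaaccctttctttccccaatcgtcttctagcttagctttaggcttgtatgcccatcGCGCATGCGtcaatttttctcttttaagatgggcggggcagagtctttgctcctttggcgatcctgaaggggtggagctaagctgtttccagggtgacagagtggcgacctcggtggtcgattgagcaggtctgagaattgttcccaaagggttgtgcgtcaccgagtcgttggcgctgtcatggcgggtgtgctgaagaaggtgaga
NDUFA5 outer start, chr7:123601602-123601901, minus strand: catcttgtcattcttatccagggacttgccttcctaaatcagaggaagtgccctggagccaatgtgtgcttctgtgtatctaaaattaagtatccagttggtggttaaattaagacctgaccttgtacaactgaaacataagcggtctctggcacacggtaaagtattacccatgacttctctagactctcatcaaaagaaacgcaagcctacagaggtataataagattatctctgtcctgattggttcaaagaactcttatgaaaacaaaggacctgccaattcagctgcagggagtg

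Over the annotated gene span and 5 kb on either side, respiratory chain genes nearly all carried the marks of active promoters and transcribed gene bodies. H3K4me3, which marks active promoters, lay in the window of 83 of 91 members (91.2%, Wilson 95% interval 83.6 to 95.5%), against 58.4% of all protein-coding genes. H3K9ac, an acetylation of active promoters, was found at 84 of 91 (92.3%), against 62.9%. H3K4me2, which flanks active promoters and enhancers, was found at 87 (95.6%), against 78.2%. The gap to all genes was largest for H3K79me2. This mark, laid down by DOT1L behind the start of transcribed genes, lay in the window of 84 members (92.3%, interval 85.0 to 96.2%), against 47.6% of all genes. H3K36me3/H4K16ac was found at 82 members (90.1%, interval 82.3 to 94.7%), against 56.3%. The median member had 4200 bp of H3K79me2 and 9130 bp of H3K36me3/H4K16ac in this window, where the median of all genes was 0 bp and 2500 bp.

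The remaining marks were sparse or unremarkable at the same genes. H3K4me1, found at enhancers and promoter flanks, was in the window of 52 members (57.1%), close to the 56.4% of all genes. H3K27ac, which marks active enhancers and promoters, was found at 5 members (5.49%, interval 2.37 to 12.2%), against 10.9% of all genes. The H3K27ac set was small throughout, with 3613 intervals over 2.43 Mb, where H3K9ac had 22643 intervals over 22.6 Mb. The size of the set enters both shares, and the reason for the lower share at the members was not tested. H3K27me3, laid down by Polycomb repressive complex 2, was in the window of 23 members (25.3%, interval 17.5 to 35.1%), against 44.4%. It lay on the gene itself at only 8 members, or 8.79%, against 34.9% of all genes.

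The windows often reach another gene, since 71 of the 91 members had another protein-coding gene within 5 kb, as did 55.2% of all genes. On the span alone, fewer members had H3K27me3 (above) and H3K4me1, and the other counts were within 2 of those in the window: H3K4me3 and H3K9ac lay on 83 members each (53.8% and 58.4% of all genes), H3K4me2 on 86 (74.0%), H3K79me2 on 84 (41.8%), H3K36me3/H4K16ac on 80 (49.5%), H3K4me1 on 40 (46.3%) and H3K27ac on 4 (7.38%). Among the 20 members without another protein-coding gene within 5 kb, 17 had H3K4me3 in the window, against 45.0% of isolated genes. H3K9ac was in the window of 17 of these 20 (49.3%), H3K79me2 of 17 (34.7%), H3K36me3/H4K16ac of 17 (40.8%), H3K4me2 of 18 (68.9%) and H3K4me1 of 9 (46.3%).

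**Figure D1:**
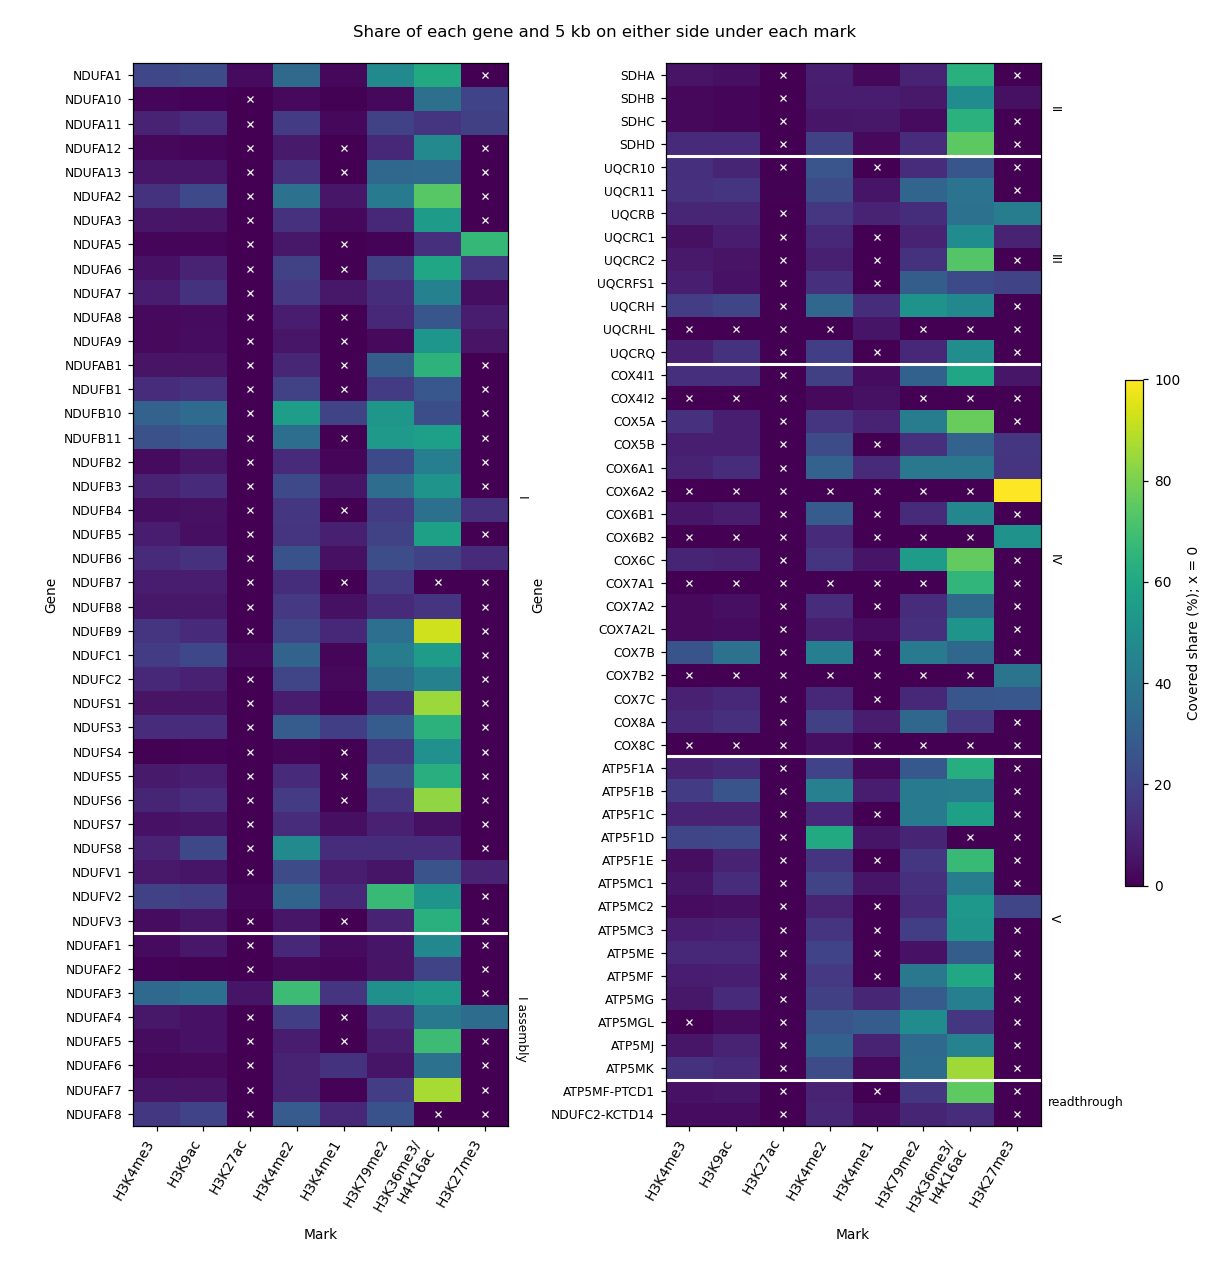
The share (%) of each gene and 5 kb on either side that each of 8 mark sets covered, 1 row per gene, grouped by complex, with 1 member left out; a cross stands for 0. Columns of crosses for H3K4me3, H3K9ac and H3K79me2 occur in the same 7 rows of complexes III and IV, with ATP5MGL lacking H3K4me3 alone of these, while H3K27ac is empty in all but 5 rows.

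At the start itself the marks came as a block. Within 1 kb of a start, H3K4me3 was present at 82 members (52.8% of all genes had it there), H3K9ac at 82 (56.3%), H3K4me2 at 85 (68.1%) and H3K79me2 at 83 (37.8%). H3K4me1 was there at 22 members (21.4%) and H3K36me3/H4K16ac at 20 (10.6%), of which 11 are genes without a listed start, counted over both ends. The same 82 members had all 4 marks there, and 78 of those 82 also had H3K36me3/H4K16ac over the span. Many genes have active starts, so the members were also set beside the 10548 genes with H3K4me3 within 1 kb of a start. Among those genes, 97.6% had H3K9ac and 100.0% had H3K4me2 there, and for these marks the members hardly differed. H3K79me2 was present within 1 kb of a start at 69.8% of those genes, and at 82 of the 82 members with H3K4me3 there. H3K36me3/H4K16ac touched the span of 82.6% of those genes. Over the span and 5 kb, H3K27me3 was found at 24.4% of the 82 members and 25.5% of those genes, and these shares lay close together. H3K27ac was at 6.1% of the 82 and 17.3% of those genes, and H3K4me1 at 58.5% and 76.8%. Width set the members less apart than presence: the H3K4me3 region at the outermost listed start had a median width of 1200 bp at 66 members and 1200 bp over all genes, and the H3K79me2 region there was 2325 bp at 66 members and 2850 bp over all genes.

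Complex I, the NADH dehydrogenase, had H3K4me3, H3K9ac, H3K4me2 and H3K79me2 in the window of 37 of its 37 genes. Its H3K4me3 ranged from 300 to 8100 bp with a median of 1500 bp, and its H3K79me2 from 750 to 28041 bp with a median of 4350 bp. NDUFV2, an iron-sulphur subunit of the NADH-binding arm (chr18:9102699-9134341), had the most covered sequence of any member for 3 marks, with 8100 bp of H3K4me3, 28041 bp of H3K79me2 and 7500 bp of H3K9ac. A single H3K79me2 region of 15600 bp opened at its start, chr18:9102601-9118200, and 79.6% of the span was under the mark. Part of the NDUFV2 total belongs to the flank, where an H3K4me3 region of 2400 bp at chr18:9136801-9139200 lay towards ANKRD12. NDUFS4, another complex I subunit, had little H3K4me3, 750 bp, but 21450 bp of H3K79me2 and 67000 bp of H3K36me3/H4K16ac. NDUFS1, which holds iron-sulphur clusters, had 2850 bp of H3K4me3 and 46444 bp of H3K36me3/H4K16ac.

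Several genes with H3K4me3 lacked H3K36me3/H4K16ac on the span. These were NDUFB7 and NDUFS7 of complex I, the assembly factor NDUFAF8 and ATP5F1D, the delta subunit of ATP synthase. NDUFS7 had 1000 bp of it in the flank, and the other 3 had 0 bp in the whole window. They were not bare: NDUFB7 had 1200 bp of H3K4me3 and 2700 bp of H3K79me2, NDUFAF8 had 1950 bp and 3000 bp, and ATP5F1D had 2725 bp and 1375 bp. ATP5F1D also had 7950 bp of H3K4me2.

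The complex I assembly factors were marked like the subunits. H3K4me3 and H3K79me2 were in the window of 8 of 8, with medians of 1950 bp and 5234 bp. NDUFAF6 had the most H3K4me2 (23400 bp), H3K4me1 (34500 bp) and H3K36me3/H4K16ac (87202 bp) of any member. It is also the longest member (222698 bp), lies on chromosome 8 and has CCNE2 and TP53INP1 within 5 kb. NDUFAF3 is short, and its H3K4me3 covered 88.7% of the span. Its region chr3:49020001-49023150 ran across the 4 listed starts of the gene.

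Complex II, succinate dehydrogenase, had H3K4me3 at 4 of 4 genes. SDHA, the flavoprotein, had 3150 bp of it; SDHB, the iron-sulphur subunit, had 1050 bp. The membrane anchors SDHC and SDHD had 1200 bp and 2250 bp. All 4 also carried H3K79me2, from 1800 bp at SDHC to 5996 bp at SDHA, and H3K36me3/H4K16ac, from 14128 bp at SDHD to 38246 bp at SDHA. None of the 4 had H3K27ac, which 10.9% of all genes had, a share at which 4 genes show nothing.

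In complex III, cytochrome bc1, 8 of 9 genes had H3K4me3, H3K9ac, H3K4me2, H3K79me2 and H3K36me3/H4K16ac in the window. The exception for all 5 was UQCRHL. UQCRH, the hinge protein, stood highest in the window with 4200 bp of H3K4me3 and 11853 bp of H3K79me2, and LRRC41 lies head to head with it. On the span UQCRH had 1903 bp of H3K4me3, where the highest of the complex was 2295 bp. Its 7153 bp of H3K79me2 on the span was the highest of the complex. In the window, the core protein UQCRC2 had 2700 bp of H3K4me3 and 5850 bp of H3K79me2, and UQCRC1 had 900 bp and 1950 bp. UQCRFS1, the Rieske iron-sulphur protein, had 1500 bp and 5250 bp.

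ATP synthase genes had H3K4me3 at 13 of 14, with a median of 1275 bp, and H3K79me2 at 14 of 14, with a median of 5250.5 bp. The catalytic head was marked throughout. ATP5F1A and ATP5F1B, the alpha and beta subunits, had 3150 bp of H3K4me3 each, and ATP5F1C, the gamma subunit, had 2850 bp. ATP5F1C also had 12150 bp of H3K79me2, nearly all in a region of 11550 bp, chr10:7785001-7796550, that spanned the start. The gene without H3K4me3 was ATP5MGL.

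Complex IV, cytochrome c oxidase, was the complex with the lowest share: 11 of 17 genes had H3K4me3, H3K9ac and H3K79me2. The 6 others were COX4I2, COX6A2, COX6B2, COX7A1, COX7B2 and COX8C, which are the tissue-specific isoforms. With the copies UQCRHL and ATP5MGL, they make up all 8 members without H3K4me3. Among the common complex IV genes, COX5A, a subunit on the matrix side, had 4050 bp of H3K4me3 and 12000 bp of H3K79me2. COX6C had 2700 bp and 14250 bp. Over all 17 genes of the complex the medians were 1050 bp and 2400 bp. COX5A lies in the part of chromosome 15, and COX6C on chromosome 8, that an alternative run left out. No complex IV or complex V gene (0 of 17 and 0 of 14) had H3K27ac in the window. Over all genes the share was 10.9%, at which so few genes show little.

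Each tissue-specific gene or copy was set beside the common gene of the same subunit. All 8 common genes had H3K4me3 in the window, and 0 of the 8 counterparts did. It covered from 600 bp at COX7A2 to 4650 bp at COX7B with a median of 1315 bp, and 600 to 1903 bp on the span. In the window, H3K79me2 covered 2400 to 11853 bp at the 8 common genes, median 5140 bp, and was found at 1 counterpart, ATP5MGL. H3K36me3/H4K16ac covered 2000 to 10803 bp at the 8 common genes and was found at 2 counterparts, COX7A1 and ATP5MGL. H3K4me2 was less divided, at 8 of 8 common genes and 4 of 8 counterparts, against 78.2% of all genes. H3K27me3 was in the window of 2 of 8 common genes and 3 of 8 counterparts, against 44.4% of all genes. On the span, H3K27me3 was at 0 of 8 common genes and 3 of 8 counterparts, against 34.9% of all genes. At shares of this size, 8 genes do not tell whether the counterparts differ from all genes. H3K27ac was absent from all 16, where 10.9% of all genes had it, a share at which 16 genes show little.

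**Figure D2:**
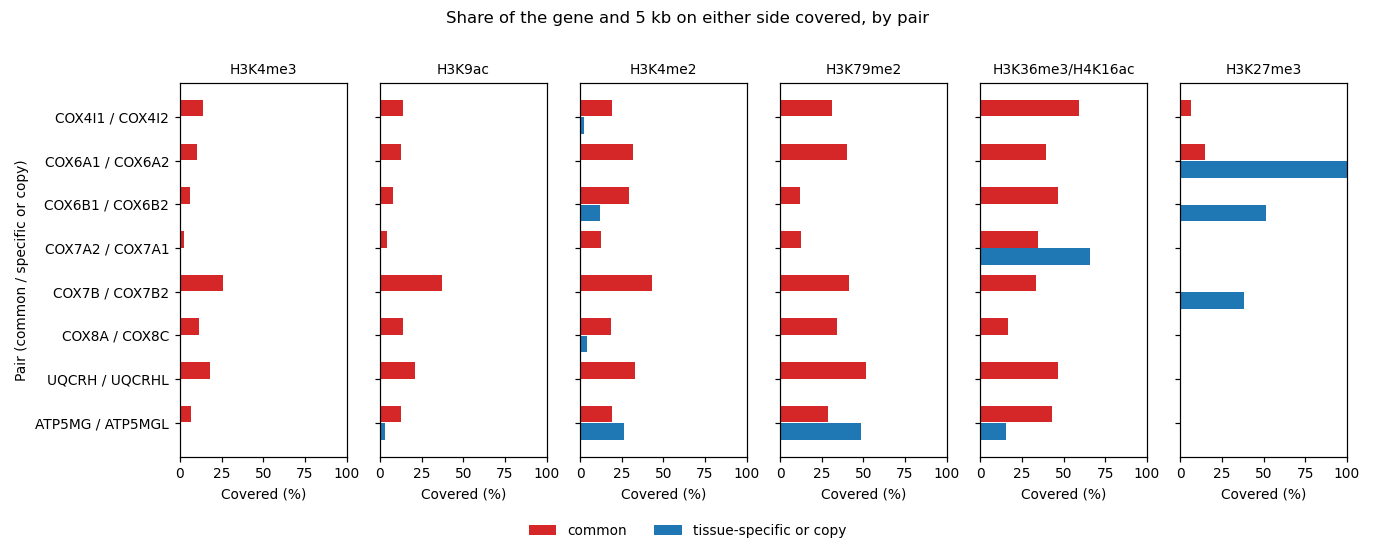
The share (%) of the gene and 5 kb on either side covered by 6 marks, with the common gene (red) and the tissue-specific gene or copy (blue) of each of 8 pairs on the vertical axis. Blue bars are missing from the H3K4me3 panel, and the H3K27me3 panel has its longest bars at COX6A2, COX6B2 and COX7B2.

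The tissue-specific genes were not alike in the marks they carried. COX6A2, the muscle form of subunit VIa (chr16:31427731-31428360), lay wholly inside a region of H3K27me3, chr16:31418001-31433500, which covered its whole window of 10630 bp. No other mark occurred in that window. COX6A1 (chr12:120438113-120440730) had 1280 bp of H3K4me3, 5030 bp of H3K79me2 and 5000 bp of H3K36me3/H4K16ac. COX6A1 had 1888 bp of H3K27me3 as well, in the flank and none within 1 kb of its start.

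COX6B2, the testis form of subunit VIb (chr19:55349704-55354719), had H3K27me3 and H3K4me2 together at its start. H3K27me3 covered 7719 bp of the window and 54.2% of the span, from a region at chr19:55352001-55361500. H3K4me2 lay within it at chr19:55353001-55354800, and 1082 bp of it fell within 1 kb of the start. COX6B2 had 0 bp of H3K4me3, H3K9ac, H3K79me2 and H3K36me3/H4K16ac. COX6B1 had 1200 bp of H3K4me3, 2400 bp of H3K79me2, 9500 bp of H3K36me3/H4K16ac and no H3K27me3.

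COX7B2, the testis form of subunit VIIb, is a long gene (chr4:46734827-46909245). H3K27me3 covered 70745 bp of its window, the most bp of any member, and 39.0% of its span, a smaller share than at COX6A2, COX6B2 and NDUFA5. None of the mark lay within 1 kb of the listed start. The nearest regions stood on either side of it, at chr4:46901501-46905500 and chr4:46911501-46916500. COX7B2 had no other mark. COX7B, on the X chromosome, had 4650 bp of H3K4me3, 7409 bp of H3K79me2 and 6659 bp of H3K9ac in its window. ATP7A and MAGT1 lie within 5 kb of it, and on the span it had 1500 bp, 4950 bp and 1833 bp of these marks.

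COX4I2, COX8C and UQCRHL had neither the active block nor H3K27me3. COX4I2 had 450 bp of H3K4me2 and 750 bp of H3K4me1 inside the gene, where COX4I1 had 2400 bp of H3K4me3, 5400 bp of H3K79me2 and 10306 bp of H3K36me3/H4K16ac. COX8C had 450 bp of H3K4me2 at its 3′ end, chr14:93348001-93348450, and nothing else, where COX8A had 1350 bp of H3K4me3 and H3K79me2 over 95.8% of its span. UQCRHL had only 600 bp of H3K4me1 in the flank, which makes it the 1 member with no mark on its span. Absence of a called interval at these genes is limited by a depth that is unknown.

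COX7A1 and ATP5MGL had marks that extended well beyond the gene. COX7A1 (chr19:36150922-36152447) had H3K36me3/H4K16ac over 100.0% of its span and no other mark. The region, chr19:36142001-36153500, was 11500 bp wide, against a gene of 1526 bp, and CAPNS1 is the other protein-coding gene within 5 kb. ATP5MGL (chr22:42639803-42640601) had 5251 bp of H3K79me2, 3151 bp of H3K4me1, 2851 bp of H3K4me2 and 300 bp of H3K9ac in its window, of which 450 bp of H3K79me2 lay on the gene. CYB5R3 is the other gene within 5 kb there, and its share in these values was not tested. COX7A2, the counterpart of COX7A1, had 600 bp of H3K4me3 and 2850 bp of H3K79me2, and ATP5MG had 1200 bp and 5250 bp.

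COXFA4 and COXFA4L2, a further common and alternative pair outside the symbol rule, were less sharply divided. COXFA4 had 1050 bp of H3K4me3, all within 1 kb of a start. COXFA4L2 had 798 bp in its flank and 0 bp within 1 kb of a start, with 5748 bp of H3K4me2 and no H3K27me3 in the window.

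H3K27me3 within 1 kb of a start was seen at 6 members, where 29.2% of all genes had it. Among genes with H3K4me3 within 1 kb of a start, it was seen there at 4 of 82 members, against 7.39% of all 10548 such genes. COX6A2 and COX6B2 had 2001 bp there, the whole of that stretch. The 4 with both marks were NDUFA5 with 2359 bp of H3K27me3 over its listed starts, UQCRB with 2001 bp, NDUFA10 with 342 bp and UQCRFS1 with 151 bp. At NDUFA10 and UQCRFS1 both marks stood side by side and not on the same sequence for most of their length. The H3K4me3 region of NDUFA10, chr2:240024301-240026100, met an upstream H3K27me3 region of 35000 bp at chr2:240026001-240061000. At UQCRFS1, H3K4me3 ended at 29213100 on chromosome 19 and H3K27me3 began upstream at 29214001. UQCRB has no listed start, and the H3K27me3 lay at an annotated end.

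NDUFA5, a subunit of the peripheral arm of complex I (chr7:123536997-123601651), had 49655 bp of H3K27me3 in its window and 64.4% of its span under it. The gene has 3 listed starts, and they did not carry the same marks. The inner start at 123557818 had 1033 bp of H3K4me3, 433 bp of H3K79me2 and 900 bp of H3K9ac within 1 kb, and also 318 bp of H3K27me3. The outer start at 123601651 had 0 bp of the first 3 marks and 2001 bp of H3K27me3. The H3K4me3 region, chr7:123556801-123557850, was followed upstream by H3K27me3 from 123558501 on, and the part of the gene downstream of the inner start held 4 regions of H3K36me3/H4K16ac but no H3K27me3 region. ASB15 lies head to head with the outer start of NDUFA5.

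On the span, H3K27me3 was also found at ATP5MC2 (3423 bp), NDUFAF4 (686 bp), NDUFA10 (20059 bp) and UQCRB (4554 bp). At 15 of the 23 members it lay in the flanks alone, from 875 bp at NDUFA7 to 4272 bp at NDUFA11. At the 20 members without another protein-coding gene within 5 kb, 8 had H3K27me3 in the window (40%), against 56.8% of isolated genes.

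H3K27ac touched 5 windows. It lay within 1 kb of the start at NDUFAF3 (750 bp), NDUFV2 (600 bp), NDUFC1 (450 bp) and NDUFA1 (450 bp), where 6.61% of all genes had it, and at UQCR11 it reached 82 bp into the flank. The starts of NDUFAF3, NDUFC1 and NDUFA1 lie within 1 kb of a start on the other strand, those of DALRD3, NAA15 and RNF113A. Such a start was present at 26 of the 73 members with a listed start and at 13.6% of all genes with one, and so few genes show little. None of the 20 isolated members (0 of 20) had H3K27ac, against 7.71% of isolated genes. Among genes with H3K4me3 within 1 kb of a start, 11.7% had H3K27ac there.

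Along the 73 members with a listed start, the marks followed an order from the start into the gene. At 500 bp inside the start, H3K4me3 covered 89.0% of the 73 members, against 82.7% of the 8795 genes that have a listed start and H3K4me3 near it. H3K4me2 covered 84.9% of the members at 500 bp upstream, 49.3% at the start and 91.8% at 1000 bp inside. The same dip at the start was present over genes with H3K4me3, at 87.4%, 56.2% and 91.9%, and over all genes, at 57.2%, 41.8% and 58.0%. H3K79me2 covered 82.2% of the members at 1000 bp inside, against 57.1% of genes with H3K4me3 and 32.2% of all genes. At 2500 bp the gap to genes with H3K4me3 was smaller, at 50.7% against 47.2%, and at 5000 bp the shares were 27.4% against 29.7%. H3K36me3/H4K16ac began later and covered 53.4% of the members at 2500 bp, against 26.8% and 16.1%, and 61.6% at 5000 bp, against 43.2% and 25.7%. All 73 members were counted at each distance, whatever their length. For genes under 5 kb, such as COX8A (1924 bp), 5000 bp lies past the gene end. These points alone therefore do not show that the H3K79me2 gap closes inside the genes. Among genes of 5 to 20 kb with H3K4me3 near a start, H3K79me2 covered a median 40.9% of the member span against 14.9%. From 20 kb on, the medians were 12% against 6.08%.

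The nearest region of each mark gave the same order. The H3K4me3 region within 5 kb of the outermost start spanned it at 51 of 66 members and reached a median of 960 bp downstream. That of H3K79me2 spanned it at 13 of 66 and lay downstream at 46, from a median of 80 bp to 2056 bp inside. H3K36me3/H4K16ac spanned the start at 0 of 61 and lay downstream at 48, with its nearest edge at a median of 1533 bp. H3K27me3, where it came within 5 kb, lay upstream at 16 of 19 members and across the start at 3, which are COX6A2, COX6B2 and NDUFA5.

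**Figure D3:**
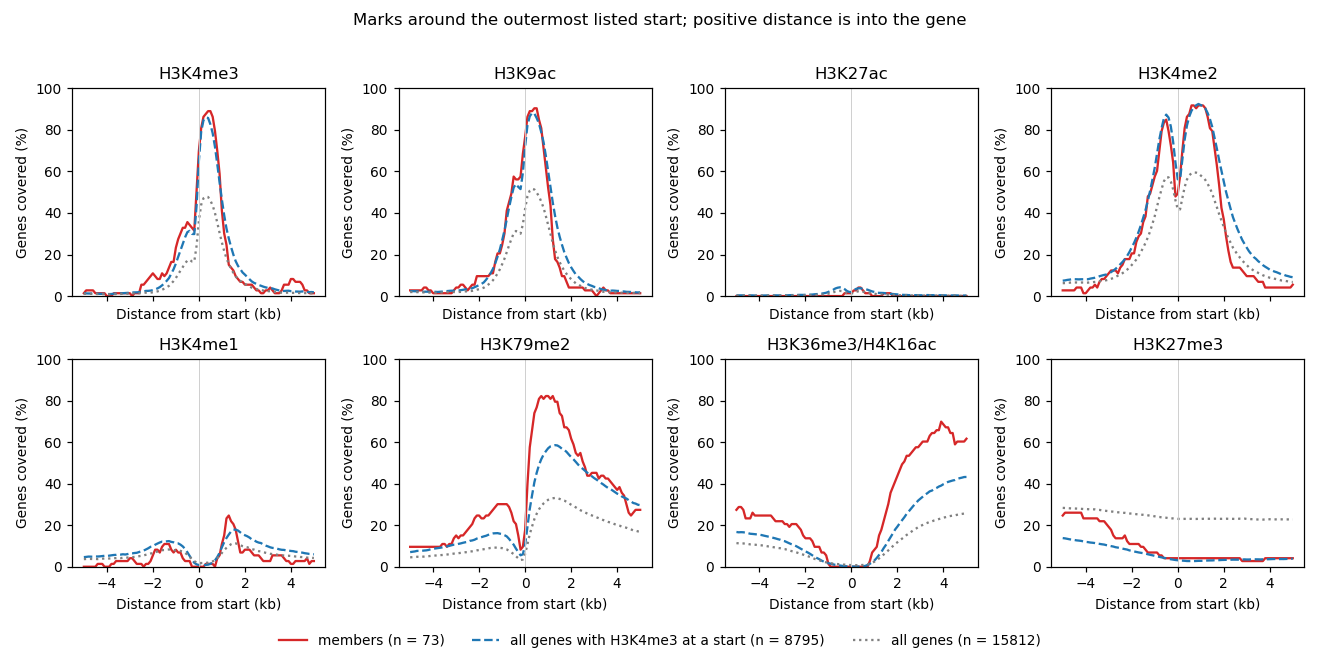
The share (%) of genes covered by each of 8 mark sets against the distance (kb) from the outermost listed start, positive into the gene, for 73 members (red), 8795 genes with H3K4me3 near a listed start (dashed) and 15812 genes (dotted). Every gene is counted at each distance, whatever its length. The red line lies above the dashed one for H3K36me3/H4K16ac from 1 kb to 5 kb downstream of the start. For H3K79me2 it stands at 82.2% against 57.1% at 1 kb and at 27.4% against 29.7% at 5 kb.

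Gene length enters these values, so the members were compared with genes of like length that also had H3K4me3 within 1 kb of a start. Under 5 kb, H3K36me3/H4K16ac was on the span of 14 of 16 members (87.5%), against 44.4% of 944 genes, and covered a median of 50.1% of the span against 0%. From 5 to 20 kb it was on 42 of 44 members (95.5%), against 81.1% of 2902 genes, with a median of 73.0% of the span against 54.8%. From 20 kb on it was on 22 of 22, against 88.6% of 6702 genes, with a median of 63.0% against 45.1%. H3K79me2 covered a median of 63.3% of the span of the 16 short members against 29.3%, 40.9% of the 44 middle ones against 14.9%, and 12% of the 22 long ones against 6.08%. In every length class the members thus had more of the span covered by both marks than genes of the same class, and H3K79me2 fell with length in both.

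**Figure D4:**
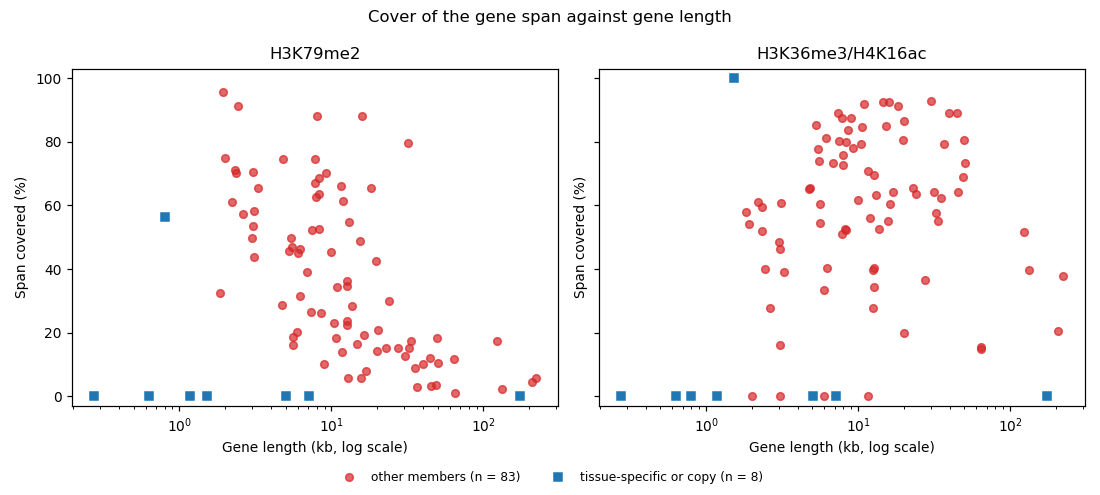
The share (%) of the gene span covered by H3K79me2 (left) and by H3K36me3/H4K16ac (right) against gene length (kb, log scale), 1 point per member, with the 8 tissue-specific genes and copies as blue squares. H3K79me2 reaches 95.8% at the short COX8A and is low at most long genes other than NDUFV2 at 79.6%, and 7 of the 8 squares lie at 0 in the H3K79me2 panel.

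Many members share a promoter region with another gene. A start on the other strand lay within 1 kb of the start at 26 of the 73 members with a listed start, against 13.6% of the 15812 genes with one. Within 5 kb of the start, these 26 members had a median of 1950 bp of H3K4me3 and 4710 bp of H3K79me2. The 43 other members with H3K4me3 had 1200 bp and 3000 bp. The same split was present over all genes with H3K4me3, at 1800 bp and 3750 bp for 1900 head-to-head genes and 1200 bp and 2550 bp for 6895 others. The excess of H3K79me2 over all genes was therefore seen with and without a head-to-head neighbour.

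The printed windows differ in their CpG content, which marks the CpG islands where many constantly used promoters lie. The ratio of observed to expected CpG in the 300 bp window had a median of 0.85 over 69 members with H3K4me3 within 1 kb of a start, against 0.86 over all 8795 such genes. It was 0.25 at COX6A2, 0.38 at COX8C, 0.52 at COX7B2 and 0.80 at COX6B2, the 4 members with a listed start and no H3K4me3. The median over all genes without H3K4me3 was 0.39. COX6B2 stood apart from the other 3, with a CpG-rich window and both H3K27me3 and H3K4me2 on it. Among the common genes, the ratio was 0.87 at COX6A1, 0.66 at COX6B1, 0.98 at COX7B and 0.79 at COX8A.

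**Figure D5:**
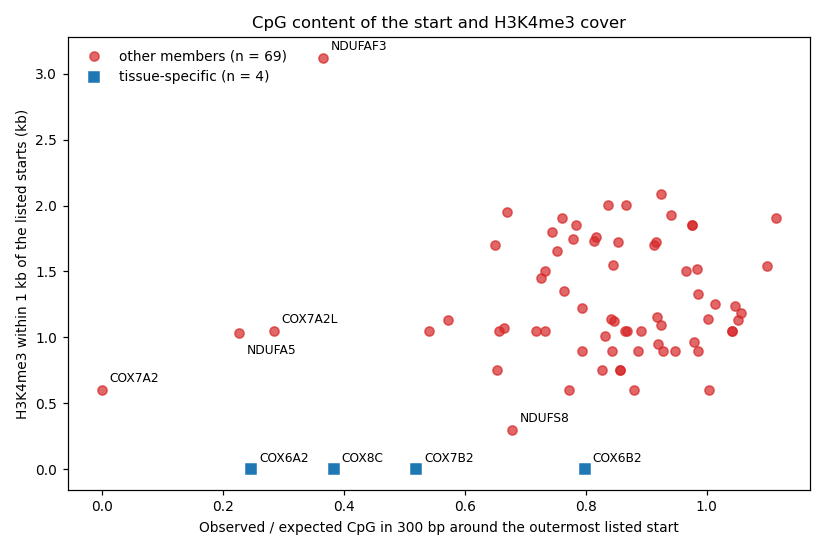
The H3K4me3 (kb) within 1 kb of the listed starts against the ratio of observed to expected CpG in the 300 bp window of the outermost listed start, 1 point per member with a listed start. The 4 tissue-specific genes (squares) lie at 0 kb, and COX7A2, NDUFA5 and COX7A2L have a low ratio there and their H3K4me3 at another listed start.

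The low ratios of COX7A2, NDUFA5 and COX7A2L belong to an outer start without H3K4me3. COX7A2 had 600 bp of H3K4me3 within 1 kb of its start at 75243801, whose window had a ratio of 1.10, and 0 bp at 75250298, whose window held no CpG. COX7A2L, which joins complexes III and IV into larger assemblies, had 1050 bp at 42361217, with a ratio of 0.73, and 0 bp at 42368957, with 0.28. At NDUFA5 the inner window had 0.71 and the outer 0.23. ATP5F1A had H3K4me3 at both of its starts, with 1155 bp and 750 bp, and NDUFAF3 at each of its 4, although the outermost window of NDUFAF3 had a ratio of 0.37.

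The searched motifs were more frequent in the members' windows than over all promoters. GCGCATGCG was found in 9 of 73 windows (12.3%), against 2.77% of all 15812 and 4.26% of those with H3K4me3. CCGGAAG was found in 20 (27.4%), against 14.1% and 21.6%, and AAGATGGCG in 8 (11%), against 2.69% and 4.43%. At least 1 of the 3 was present in 31 windows (42.5%), against 18.2% and 28.0%, and in 0 of the 4 windows of members without H3K4me3, where 5.9% of all genes without H3K4me3 have it, a share at which 4 windows show nothing. In ATP5F1C the NRF1 letters matched on both strands in an overlap, at -22 and -21 from the start. COX6A1 held them at -219 with the ETS letters at -16, and the ETS letters stood at -12 in COX6B1 and -18 in COX8A. COX7B, which had H3K4me3 as well, held none of the 3. SDHB held the ETS letters at -128 and the YY1 letters at 10 bases after the start, and the inner start of NDUFA5 held the NRF1 letters at -158. These positions count the start as 0 and give the left end of the capitals. A match describes the letters and does not show that a factor binds.

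Other genes of the same pathway were marked alike. Of 9 further subunits and carriers outside the symbol rule, among them CYCS (cytochrome c) and CYC1 (cytochrome c1), 9 had H3K4me3 and 9 had H3K79me2 in the window, and none had H3K27me3 (0 of 9). CYC1 had 3075 bp of H3K4me3 and CYCS 1350 bp. Of 23 assembly factors of complexes II to IV, 22 had H3K4me3; COX17, a copper carrier, had none but had 1050 bp of H3K9ac. H3K79me2 was in the window of 22 of those 23, and H3K27me3 of 3. Over all genes the shares in the window were 58.4% for H3K4me3, 47.6% for H3K79me2 and 44.4% for H3K27me3.

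Of 11 regulators of these genes, 9 had H3K4me3 within 1 kb of a start, against 52.8% of all genes. Among the 9 were NRF1 (2001 bp), GABPA (1829 bp), YY1 (1907 bp) and TFAM (1460 bp). The 2 without H3K4me3 there were coactivators. PPARGC1A, known for inducing mitochondrial genes in muscle, liver and brown fat, had 0 bp of H3K4me3 and 440405 bp of H3K27me3 over its span and 5 kb. PPARGC1B had 2400 bp of H3K4me3 in its window and 0 bp within 1 kb of a start. H3K27ac was in the window of 5 of the 11 regulators, against 10.9% of all genes.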

How the data were processed

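KBM-7 chromatin was fixed with formaldehyde, sheared to about 300 bp and immunoprecipitated, per the labels' protocols, with 1 library for each of 9 marks and 3 inputs. What the authors deposited is 1 list of intervals carrying genome positions and a mark name, without any count or score. The submitters' processing notes name the tools cutadapt, Bowtie2 and MACS, and GRCh38 as the build; their versions, the thresholds and the choice of input in calling are not given in the sources used. By the labels, H3K27me3 has an input of its own, H3K4me3, H3K9ac and H3K79me2 share another, and the remaining 5 marks share the last. Each mark was therefore compared with itself over genes. Intervals of 1 label without a matching sample were left out.

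Overlapping or adjacent intervals of a mark were joined, after starts were brought to 1 convention by their place on a 50 bp grid. Genes came from a RefSeq table of GRCh38.p14. Of the 91 members, 73 had a listed start in the RefSeq promoter table (79.2% of all genes had one), 10 of them more than 1. The 18 members without a listed start include ATP5F1B, ATP5F1D, ATP5MC3, ATP5MF, ATP5MF-PTCD1, ATP5MGL, COX4I2, COX6C, COX7A1, NDUFAF6, NDUFB5, NDUFB9, NDUFC2, NDUFS5, SDHC, UQCRB and UQCRHL; both annotated ends were used for them. A gene counted as marked with at least 1 bp under the mark in the window. Marks over genes that overlap cannot be assigned to either.

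With 1 library per mark no p-value was computed, and genes are not replicates. The members and gene lists were chosen with earlier results of these data known. The genes named by rule were the tissue-specific genes and their counterparts, up to 4 members with the most covered bp for each mark, up to 4 members against the majority, and members with H3K27me3 or H3K27ac at a start. Other members named by complex, and those named for their motifs or several starts, were picked after their values were seen. The alternatives were other windows, wide regions alone, at least 500 bp of cover, isolated genes, subunit genes alone, and all chromosomes but 8 and part of 15. That part of chromosome 15 ran from 61 to 90 Mb. The values of 1 member are not reported here, though it is counted among the 91. Functions were tested on simulated data. Python 3.11.15, numpy 2.4.6 and pandas 2.3.3 were used.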

Additional observations from a re-analysis of the deposited data

How the results depend on the processing

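The shares of members with H3K4me3, H3K9ac, H3K4me2, H3K79me2 and H3K36me3/H4K16ac lay above those of all genes under every alternative run except for H3K4me3 and H3K4me2 against genes that have H3K4me3 at a start, where both stood at 100.0%. Shares were called moved outside the Wilson interval of the reported value, and counts and medians when they changed by over 1.5 times, or between 0 and another value. A position was called moved at any difference. By these limits 28 of the shares, 1 of the medians of covered bp and of region number, 14 of the counts of isoform genes and all 8 positions moved, and 68 shares, 23 medians and 34 counts did not. With only the wider regions of each mark (median width or more), the shares were 79.1% for H3K4me3, 82.4% for H3K9ac, 81.3% for H3K36me3/H4K16ac, 36.3% for H3K4me1 and 2.2% for H3K27ac. A minimum of 500 bp also gave 2.2% for H3K27ac. Among isolated members the shares were 0.0% for H3K27ac, 45.0% for H3K4me1 and 40% for H3K27me3. On the span alone they were 44.0% for H3K4me1 and 8.79% for H3K27me3, and with 2 kb on either side 13.2% for H3K27me3. Within 1 kb of a start they were 24.2% for H3K4me1, 22% for H3K36me3/H4K16ac and 6.59% for H3K27me3. The last value of H3K36me3/H4K16ac includes members whose both ends were used. The median cover of H3K36me3/H4K16ac was 3369.0 bp within 5 kb of a start, a window that leaves out most of a long gene.

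The following alternatives were added after the data were seen. With listed starts alone, the shares within 1 kb were 21.9% for H3K4me1, 12.3% for H3K36me3/H4K16ac (5.86% of all genes) and 6.85% for H3K27me3. Among members with H3K4me3 within 1 kb of a start, 100.0% had H3K4me3, H3K9ac, H3K4me2 and H3K79me2 and 96.3% had H3K36me3/H4K16ac, against 98.1% for H3K9ac, 80.9% for H3K79me2 and 88.3% for H3K36me3/H4K16ac over genes of the same kind. H3K27me3 stood at 24.4% against 25.5% in that comparison. Without the tissue-specific genes and copies, the first 4 marks stood at 100.0% and H3K36me3/H4K16ac at 96.4%.

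Of the 8 tissue-specific genes and copies, H3K9ac was left at 0 on the span, within 1 kb of a start and with wide regions. H3K36me3/H4K16ac was left at 1 in each of those settings. H3K4me2 was left at 2 within 1 kb of a start and with wide regions, and H3K4me1 at 1 on the span and 0 within 1 kb. Of the 8 common genes, H3K4me1 and H3K36me3/H4K16ac were left at 2 each within 1 kb of a start, and H3K27me3 at 0 on the span and within 1 kb. Positions taken at the midpoint of the nearest region were, in bp into the gene, 288.5 for H3K9ac, 435.5 for H3K4me3, 454.0 for H3K4me2, 397.5 for H3K27ac, 1078.5 for H3K79me2, 1162.5 for H3K4me1, 3955.5 for H3K36me3/H4K16ac and -4875.5 for H3K27me3; a midpoint differs from an edge by construction. No paired analysis was possible because each mark has 1 library and no replicate. Depth is unknown, so an absent interval does not show an absent mark.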
